A study of Arabidopsis thaliana with 9 samples.

Results

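The genes that build and loosen the cell wall were followed across the 3 groups of the study. They were chosen by gene symbol, as every gene whose symbol in the deposited tables begins with EXP, EXLA, EXLB, XTH, XTR, TCH4, CSL, CESA or PME, or with FLA, PRP or EXT before a digit. The rule found 139 of the 24635 genes in the tables. Of these, 133 are wall genes, and 6 share only the spelling: PMEAMT, an enzyme of phosphocholine synthesis, and PRP39, PRP39-2, PRP40A, PRP40B and PRP40C, which are pre-mRNA processing factors. No measured value entered the rule, but the members were chosen with earlier results of these data known.

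A growing plant cell is held by a wall of cellulose microfibrils embedded in xyloglucan and pectin, and it enlarges when this network yields to turgor. Cellulose synthases (CESA) make the microfibrils at the plasma membrane, and cellulose synthase-like proteins (CSL) make other glycan backbones, among them those of xyloglucan and mannan. Expansins loosen the contacts between polymers, xyloglucan endotransglucosylase/hydrolases (XTH, with TCH4 and XTR6) cut and rejoin xyloglucan chains, and pectin methylesterases (PME) remove methyl groups from pectin, which alters its stiffness. Extensins (EXT), proline-rich proteins (PRP) and fasciclin-like arabinogalactan proteins (FLA) are structural or surface glycoproteins. In seedlings these families are known for hypocotyl and root elongation and for the tip growth of root hairs.

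Polyadenylated RNA came from whole Arabidopsis thaliana seedlings aged 6 days, grown on sucrose-supplemented medium with 16 h of light and 8 h of darkness each day, in 3 libraries a group that the labels call biological replicates. The groups were untreated Col-0, the wild type; untreated melinoe, an EMS-induced mutant of the FMN/FHY gene (At4g21470), whose product makes the flavin cofactor FMN from riboflavin and also hydrolyses it; and Col-0 given riboflavin through 8 h of the dark period. For riboflavin, 0.6 mM stands in the sample labels and 0.2 mM in the text on the design. The labels name no backcross of the mutant, no other allele, no mock treatment and no hour of harvest for the untreated groups, so riboflavin and the hours of darkness cannot be told apart. Library totals ran from 19964391 to 21421414 counts, and libraries are named here by the letters A to C of their columns. FMN/FHY transcript, which an EMS point mutation need not alter, stood at 40.2 to 44.6 CPM in Col-0, 36.5 to 39.0 CPM in melinoe and 110.3 to 113.5 CPM with riboflavin. It was slightly lower in melinoe than in Col-0 (log2 fold change -0.15, edgeR quasi-likelihood adjusted p = 0.0168). With riboflavin it was higher (1.41, edgeR quasi-likelihood adjusted p = 1.94e-20).

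Levels of a gene are given below as CPM on a common TMM scale, in the order of libraries A, B and C, and levels of different genes are compared only by TPM, which is scaled for transcript length and was taken as the authors' mean of each group, with no spread. A gene was called higher or lower at a Benjamini-Hochberg adjusted p under 0.05 in edgeR's quasi-likelihood test over all genes of that comparison. Both comparisons with Col-0 use the same Col-0 libraries. Of the 139 members, 18 had too few reads to be tested in any comparison, with at most 14 counts in a library. They were CESA10, CSLB06, CSLD4, CSLD6, CSLG1, EXP26, EXPA2, EXPA21, EXPB2, EXPB4, FLA3, FLA14, FLA20, FLA21, PME38, PMEI1, PMEI5 and XTH2.

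With riboflavin, 80 of the 121 members tested were lower and 26 higher, where 37.4% and 36.8% of all 20356 genes tested were lower and higher. At least a doubling was reached by 7 members, against 7.7% of all genes, and at least a halving by 44 members, against 9.94% of all genes. The median log2 fold change of the members was -0.63 and that of all genes tested -0.0028. In melinoe, 61 of 120 members tested were lower and 26 higher, where 25.2% and 25.4% of all 20277 genes tested were lower and higher, and the median log2 fold change was -0.18 against -0.0032. There, 4 members were at least doubled and 9 at least halved, against 3.67% and 2.4% of all genes. The libraries of the groups did not overlap for 105 members tested with riboflavin (86.8%) and for 92 in melinoe (76.7%), against 75.6% and 56.6% of all genes.

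The difference between melinoe and riboflavin-treated seedlings was tested directly, without Col-0. Of 121 members, 64 were higher in melinoe and 35 lower, where 37.1% and 37% of all 20344 genes tested were higher and lower. At least a doubling set melinoe above riboflavin for 38 members, against 9.61% of all genes, and at least a halving set it below for 11, against 7.43%. XTH29 is among the 121 members and passed the filter on low counts only with the riboflavin libraries, so its outcome here is not independent of that filter. The libraries did not overlap for 98 members (81%), against 75.2% of all genes. This comparison joins genotype, riboflavin and dark hours, which cannot be told apart in it. In bulk RNA, fewer cells of a type and less transcript per cell cannot be told apart either.

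**Figure D1:**
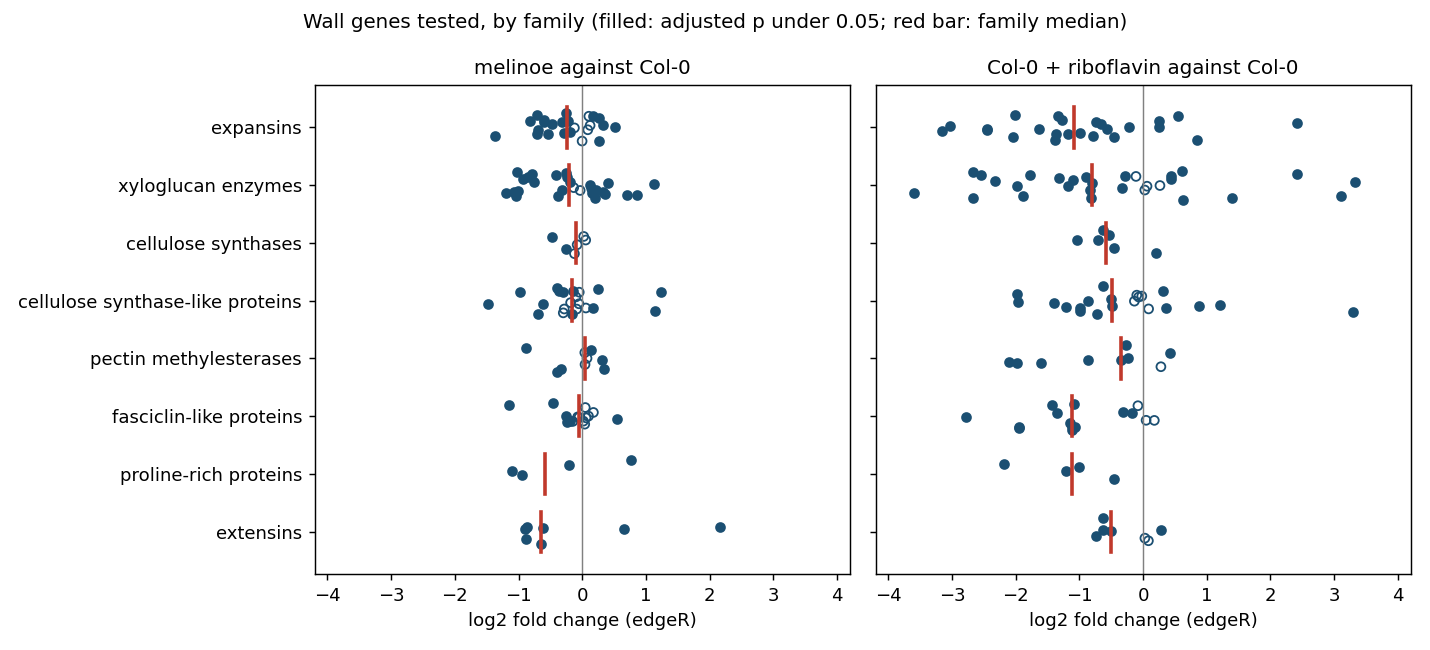
Each point is a wall gene tested against Col-0, in melinoe (left) and with riboflavin (right), by family, with the log2 fold change on the x axis; filled points passed an adjusted p of 0.05, open points did not, and red bars are family medians. With riboflavin the medians of all 8 families lie below 0, from -1.11 for fasciclin-like and proline-rich proteins to -0.34 for pectin methylesterases, while a few xyloglucan enzymes, EXPA17 and CSLG2 lie far to the right.

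CPM summed over a family shows how its share of each library moved between groups. Expansins stood between 866 and 891 CPM in Col-0 libraries and between 386 and 400 with riboflavin, 44.6% of the Col-0 mean. Fasciclin-like proteins stood at 45.5% of the Col-0 mean, proline-rich proteins at 27.7%, pectin methylesterases at 62.3% and cellulose synthases at 67.98%. For each of these 5 families the Col-0 and riboflavin libraries did not overlap. Cellulose synthase-like proteins stood at 93.9%, also with no overlap. In 2 families the ranges overlapped. The xyloglucan enzymes summed to 3845 to 4027 CPM in Col-0 and 3853 to 4227 CPM with riboflavin. The extensins summed to 1359 to 1779 CPM in Col-0 and 1439 to 1765 CPM with riboflavin, 108% of the Col-0 mean. In melinoe the extensins stood at 3225 to 3516 CPM, 228% of the Col-0 mean. Cellulose synthases (86.85% of the Col-0 mean), cellulose synthase-like proteins (93.9%) and pectin methylesterases (105.5%) also did not overlap Col-0 in melinoe. The ranges of the remaining families overlapped there. These sums are descriptions and were not tested.

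**Figure D2:**
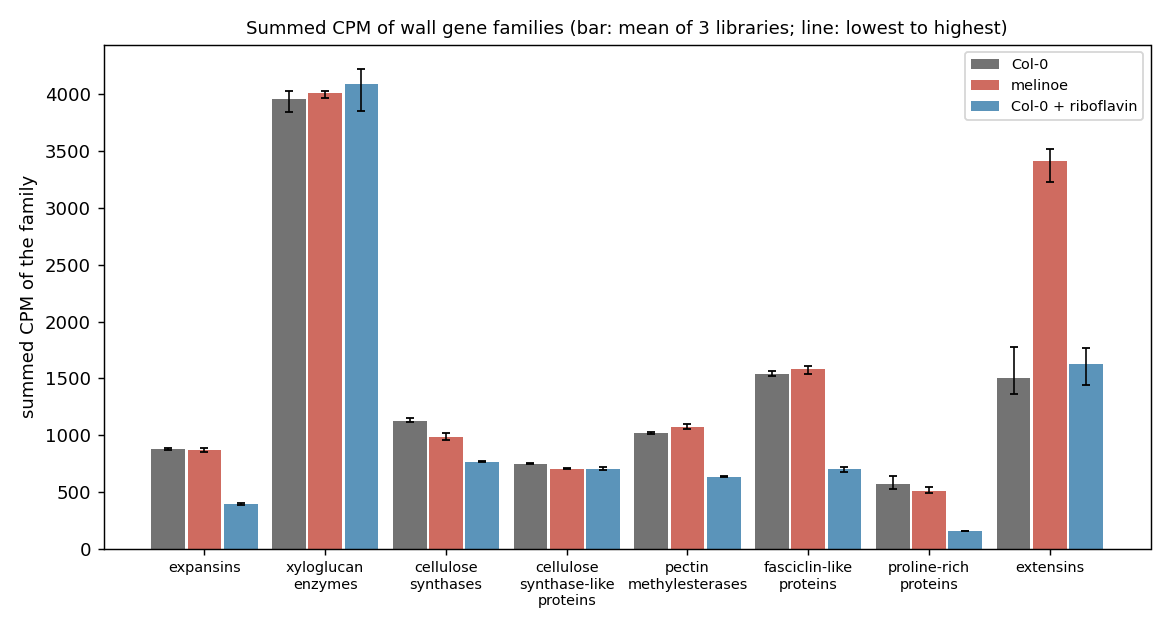
Bars give the summed CPM of each wall gene family as the mean of 3 libraries in Col-0, melinoe and Col-0 with riboflavin, and lines run from the lowest to the highest library. Expansins, fasciclin-like proteins and proline-rich proteins are low with riboflavin, extensins are high in melinoe (3416 against 1500 CPM), and the xyloglucan enzyme bars are close to each other.

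The upstream sequences of 5 members are shown because these genes had large or opposite changes in the comparisons that follow. Each line gives the 250 bases before the annotated gene start on the RefSeq TAIR10.1 assembly, read 5′ to 3′ on the strand of the gene, and no other annotated gene overlaps these windows. Capitals mark matches, on either strand, to 5 motifs: CACGTG (the G-box), TGTCTC (an auxin response element), CACATG (an E-box), AAATATCT (the core of the evening element) and CGTGNG.
XTH7 (chr4:17777446-17777695, minus strand): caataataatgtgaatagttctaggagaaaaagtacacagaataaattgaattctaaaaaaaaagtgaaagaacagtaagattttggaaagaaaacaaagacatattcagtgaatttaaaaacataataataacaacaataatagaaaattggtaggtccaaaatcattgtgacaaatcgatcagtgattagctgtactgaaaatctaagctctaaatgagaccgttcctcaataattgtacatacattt
EXPA5 (chr3:11013452-11013701, minus strand): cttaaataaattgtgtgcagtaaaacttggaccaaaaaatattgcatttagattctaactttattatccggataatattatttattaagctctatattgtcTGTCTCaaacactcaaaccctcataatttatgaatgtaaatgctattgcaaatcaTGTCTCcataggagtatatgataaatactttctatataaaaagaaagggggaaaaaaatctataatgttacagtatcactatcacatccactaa
EXPA7 (chr1:4276255-4276504, plus strand): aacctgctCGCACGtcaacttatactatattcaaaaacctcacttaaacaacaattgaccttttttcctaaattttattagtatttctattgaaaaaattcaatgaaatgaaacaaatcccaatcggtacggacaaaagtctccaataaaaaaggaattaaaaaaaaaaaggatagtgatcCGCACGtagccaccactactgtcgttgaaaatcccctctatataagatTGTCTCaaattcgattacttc
PME44 (chr4:16022019-16022268, plus strand): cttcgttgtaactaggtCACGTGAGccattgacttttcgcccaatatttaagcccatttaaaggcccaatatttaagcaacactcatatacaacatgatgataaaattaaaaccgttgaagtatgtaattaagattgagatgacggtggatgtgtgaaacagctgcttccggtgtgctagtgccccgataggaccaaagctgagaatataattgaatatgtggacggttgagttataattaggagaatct
CSLG2 (chr4:12461657-12461906, plus strand): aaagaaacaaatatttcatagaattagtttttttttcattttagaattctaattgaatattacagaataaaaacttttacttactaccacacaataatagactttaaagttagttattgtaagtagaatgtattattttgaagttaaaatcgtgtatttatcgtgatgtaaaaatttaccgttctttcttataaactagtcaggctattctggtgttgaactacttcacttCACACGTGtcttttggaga
XTH7 has no match in this window. EXPA5 has TGTCTC 149 and 94 bases before the gene start, EXPA7 has CGTGNG at 242 and 69 and TGTCTC at 21, PME44 has CACGTG at 233 and CSLG2 has CACGTG at 17, each position counted to the leftmost base of the match. In PME44 and CSLG2 the CACGTG overlaps a CGTGNG.

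Over all 133 wall members, CACGTG was found in 6.02% of windows, CACATG in 16.5%, TGTCTC in 11.3%, AAATATCT in 3.01% and CGTGNG in 18%. Over the windows of 24634 genes of the tables the shares were 6.96%, 11.1%, 10.7%, 4.81% and 12.7%. Of the 56 wall members lower in melinoe, 15 had CGTGNG (26.8%), and of the 26 higher there, 3 had it (11.5%). Of the 79 wall members lower with riboflavin, 14 had CGTGNG (17.7%), and of the 21 higher there, 5 had it (23.8%), the opposite order. These shares were not tested. A match describes letters in a window and is not a binding site.

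Among expansins, the highly expressed alpha-expansins were lower with riboflavin and a small set of others was higher. All 24 expansins tested passed with edgeR, 19 lower and 5 higher, of which 3 stayed higher under DESeq2 or upper quartile scaling, with a family median log2 fold change of -1.08. Family counts here and below stand against 37.4% of all genes lower and 36.8% higher with riboflavin, and 25.2% and 25.4% in melinoe. Between melinoe and riboflavin, 37.1% of all genes were higher in melinoe and 37% lower. EXP3 (EXPA3), the expansin with the most transcript in Col-0 at 191 TPM by the authors' mean, measured 180, 189 and 189 CPM in the Col-0 libraries, 204, 214 and 207 CPM in melinoe and 31.9, 37.3 and 32.3 CPM with riboflavin. All riboflavin libraries lay below all others, and the fall was 5.49-fold (log2 fold change -2.46, standard error 0.0496, edgeR quasi-likelihood adjusted p = 6.55e-25).

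EXPA5 (AT3G29030; chromosome 3, 11011262 to 11013451 on TAIR10.1), an alpha-expansin, and EXPA8 (AT2G40610; chromosome 2, 16948791 to 16950705), another, had the lowest log2 fold changes of the family with riboflavin. EXPA5 measured 16.5, 16.6 and 16.2 CPM in the Col-0 libraries, 14.8, 13.9 and 14.4 CPM in melinoe and 1.88, 2.05 and 1.56 CPM with riboflavin, a fall of 8.94-fold with riboflavin (log2 fold change -3.16, standard error 0.111, edgeR quasi-likelihood adjusted p = 1.54e-19). EXPA8 measured 38.7, 35.1 and 39.2 CPM in the Col-0 libraries, 34.1, 28.9 and 31.8 CPM in melinoe and 3.77, 5.25 and 4.72 CPM with riboflavin, a fall of 8.20-fold (log2 fold change -3.04, standard error 0.0862, edgeR quasi-likelihood adjusted p = 1.35e-21). In both genes the melinoe libraries stayed near Col-0, with log2 fold changes of -0.20 and -0.26. The small change of EXPA5 in melinoe lost its call with DESeq2 (adjusted p = 0.114) and in edgeR without melinoe library B (adjusted p = 0.07006).

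EXPA6 and EXPA11 fell with riboflavin by 5.45-fold and 4.12-fold, and EXPA1, a widely studied expansin of leaf and stomatal tissue, by 2.58-fold. EXPA1 measured 148, 155 and 149 CPM in the Col-0 libraries, 193, 182 and 193 CPM in melinoe and 56.4, 60.3 and 58.2 CPM with riboflavin. It was lower in every riboflavin library and higher in every melinoe library than in Col-0, with a log2 fold change of 0.33 in melinoe. EXP3 and EXPA11 had the same order of groups, with log2 fold changes in melinoe of 0.16 and 0.26. The beta-expansins tested, EXPB1 and EXPB3, were lower in both comparisons, EXPB3 at -2.01 with riboflavin and -0.60 in melinoe, and EXPB1 at -0.32 in melinoe, a call lost with DESeq2 (adjusted p = 0.0989).

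The 5 expansins that rose with riboflavin were EXPA17, EXPA10, EXPA7, EXPA16 and EXPA18, and the calls of EXPA16 and EXPA18 were those lost under the other settings. EXPA17, known from lateral root formation, measured 2.25, 1.88 and 1.68 CPM in the Col-0 libraries, 1.17, 1.31 and 1.12 CPM in melinoe and 9.75, 9.89 and 11.3 CPM with riboflavin. Its level was low in untreated seedlings and 5.32-fold higher with riboflavin (log2 fold change 2.41, standard error 0.128, edgeR quasi-likelihood adjusted p = 1.71e-15). In melinoe it was lower than in Col-0 (log2 fold change -0.69), a call lost with DESeq2 (adjusted p = 0.0626). EXPA10, a leaf expansin, was higher in both comparisons, at 28.1, 27.2 and 30.6 CPM in melinoe and 33.9, 36.1 and 38.6 CPM with riboflavin against 19.1, 19.7 and 21.3 CPM in Col-0.

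EXPA7 and EXPA18 are the expansins known from root hairs, and both were lower in melinoe and higher with riboflavin. EXPA7 measured 9.36, 10.4 and 11.1 CPM in the Col-0 libraries, 5.98, 6.08 and 5.41 CPM in melinoe and 14.4, 16.1 and 14.7 CPM with riboflavin, so its groups were ordered melinoe, Col-0, riboflavin with no overlap. The log2 fold change was -0.82 in melinoe and 0.55 with riboflavin, and melinoe lay below the riboflavin group by 2.61-fold in the direct comparison (log2 fold change -1.38, standard error 0.0897, edgeR quasi-likelihood adjusted p = 1.52e-14). EXPA18 had log2 fold changes of -0.54 and 0.25, the latter with an edgeR quasi-likelihood adjusted p of 0.0232 and a DESeq2 adjusted p of 0.0894. Of the 24 expansins, 16 were higher in melinoe than with riboflavin, 5 were lower and 3 did not pass.

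The expansin-like genes, whose proteins have the fold of expansins and no established loosening activity, were all lower with riboflavin. EXLA3 had the lowest log2 fold change of the family in melinoe, -1.37, with 8.31, 8.45 and 7.77 CPM in the Col-0 libraries, 3.60, 2.82 and 3.07 CPM in melinoe and 2.61, 2.10 and 3.21 CPM with riboflavin. EXLA1 measured 87.2, 86.1 and 86.9 CPM in the Col-0 libraries, 55.1, 51.5 and 52.4 CPM in melinoe and 75.4, 72.1 and 74.9 CPM with riboflavin. With riboflavin EXLA1 was the expansin family member with the most transcript, holding 26.1% of the family's summed TPM, a place that EXP3 held in Col-0 with 19.4%.

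**Figure D3:**
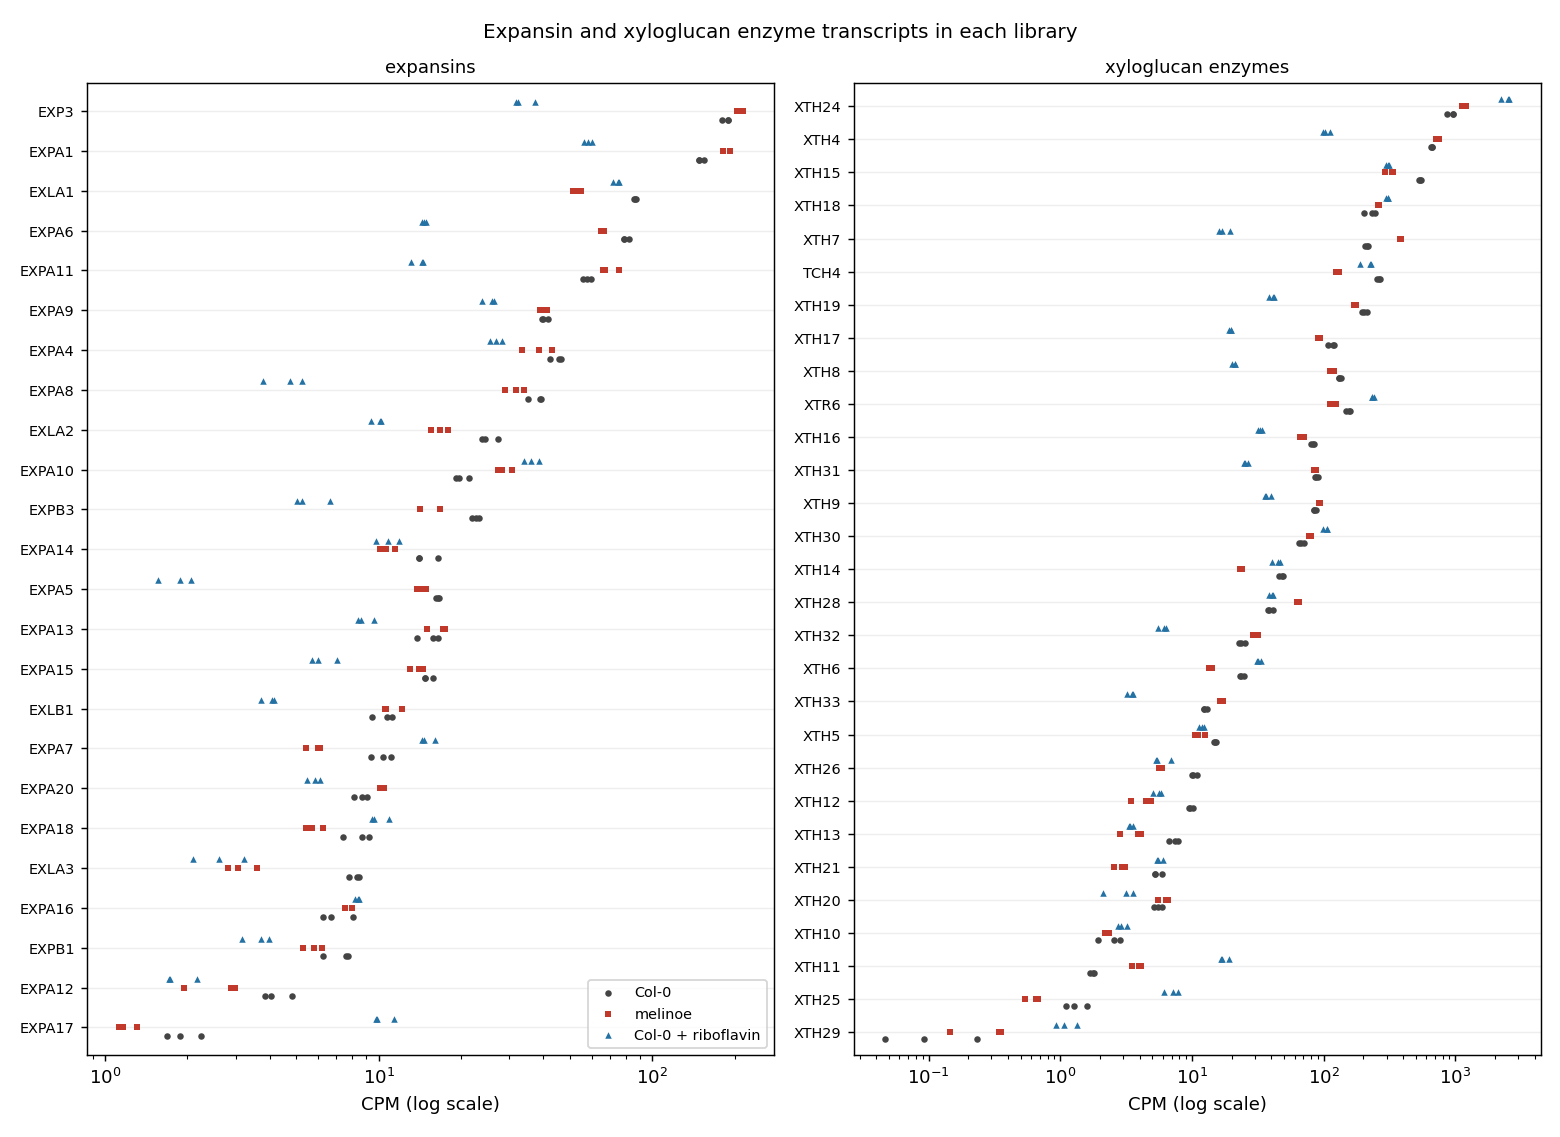
CPM on a log axis for each expansin (left) and xyloglucan enzyme (right) tested in either comparison with Col-0, ordered by the authors' mean TPM in Col-0, with 3 libraries a group; CPM compares libraries within a gene. The riboflavin triangles lie far left of the other groups for EXPA8, EXPA5, XTH7 and XTH4 and far right for EXPA17, XTH11 and XTH25; XTH7 also separates melinoe to the right of Col-0.

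The xyloglucan enzymes split with riboflavin into a large set that fell and a smaller set that rose. Of 29 tested, 17 were lower, 8 higher and 4 did not pass. At least a halving was reached by 11 and at least a doubling by 4, against 9.94% and 7.7% of all genes. XTH24 (MERI5; AT4G30270; chromosome 4, 14819192 to 14820595) held 25.2% of the family's summed TPM in Col-0, 31.2% in melinoe and 62.2% with riboflavin. It measured 966, 862 and 964 CPM in the Col-0 libraries, 1121, 1204 and 1196 CPM in melinoe and 2563, 2223 and 2526 CPM with riboflavin, a rise of 2.62-fold with riboflavin (log2 fold change 1.39, standard error 0.0470, edgeR quasi-likelihood adjusted p = 6.74e-20). In melinoe the log2 fold change was 0.33, also called.

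XTH7 (AT4G37800; chromosome 4, 17775370 to 17777445) had the widest range of all members across the 3 groups. It measured 205, 211 and 215 CPM in the Col-0 libraries, 388, 379 and 385 CPM in melinoe and 16.2, 16.96 and 19.3 CPM with riboflavin. Every melinoe library lay above and every riboflavin library far below Col-0. The log2 fold change was 0.87 in melinoe (standard error 0.0363, edgeR quasi-likelihood adjusted p = 1.99e-17) and -3.59 with riboflavin (standard error 0.0520, adjusted p = 6.08e-28). Between melinoe and the riboflavin group the difference was 21.8-fold (log2 fold change 4.44, standard error 0.0487, edgeR quasi-likelihood adjusted p = 1.33e-33).

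XTH4, the xyloglucan enzyme with the most transcript in Col-0 after XTH24, at 756 TPM by the authors' mean, measured 668, 650 and 664 CPM in the Col-0 libraries, 746, 712 and 742 CPM in melinoe and 111, 99.3 and 103 CPM with riboflavin. It fell 6.33-fold with riboflavin (log2 fold change -2.66, standard error 0.0406, edgeR quasi-likelihood adjusted p = 1.58e-27) and had 0.15 in melinoe. XTH8 fell 6.38-fold with riboflavin, from 131, 135 and 131 CPM in Col-0 to 21.1, 21.1 and 20.1 CPM, and XTH17 and XTH19, which are known from the elongation zone of the root, fell 5.83-fold and 4.99-fold. XTH31, known for xyloglucan hydrolysis and aluminium sensitivity, had a log2 fold change of -1.78 with riboflavin and did not pass in melinoe (-0.03). XTH32 and XTH33 had the order of XTH7, higher in melinoe (0.36 and 0.40) and lower with riboflavin (-1.98 and -1.88).

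The members that rose most with riboflavin had little transcript in Col-0. XTH11 (AT3G48580; chromosome 3, 18007098 to 18008535) measured 1.79, 1.78 and 1.68 CPM in the Col-0 libraries, 3.50, 4.08 and 3.94 CPM in melinoe and 19.3, 16.96 and 16.5 CPM with riboflavin. It rose 10.01-fold with riboflavin (log2 fold change 3.32, standard error 0.115, edgeR quasi-likelihood adjusted p = 1.13e-19), the highest log2 fold change among the wall members, and it was also higher in melinoe (log2 fold change 1.13). XTH25 measured 1.10, 1.59 and 1.26 CPM in the Col-0 libraries, 0.659, 0.681 and 0.536 CPM in melinoe and 6.13, 7.21 and 7.84 CPM with riboflavin, so melinoe lay below and riboflavin above Col-0, and the direct difference was 11.3-fold (log2 fold change -3.50). XTH29 rested on few reads, at 0.0918, 0.235 and 0.0468 CPM in Col-0 and 1.06, 1.34 and 0.925 CPM with riboflavin. It passed the filter on low counts only through the riboflavin libraries, so its rise is not independent of that filter. XTH29 was not tested in melinoe against Col-0. It is counted among the 8 xyloglucan enzymes higher with riboflavin and the 4 at least doubled, and among the 26 and 7 of all members. It is also among the 121 members tested between melinoe and riboflavin, where the same limit holds. XTR6 (XTH23), XTH30, XTH6 and XTH18 rose with riboflavin by log2 fold changes of 0.61, 0.62, 0.44 and 0.43.

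TCH4 (XTH22), a xyloglucan enzyme known as a touch-induced gene, measured 265, 253 and 262 CPM in the Col-0 libraries, 124, 130 and 128 CPM in melinoe and 226, 188 and 227 CPM with riboflavin. It was lower in both comparisons, by 2.04-fold in melinoe (log2 fold change -1.03, standard error 0.0384, edgeR quasi-likelihood adjusted p = 1.27e-18) and with a log2 fold change of -0.28 with riboflavin. XTH15, close in sequence to TCH4 and among the most abundant members, fell in both comparisons, from 539, 544 and 525 CPM in Col-0 to 327, 335 and 292 CPM in melinoe and 295, 313 and 306 CPM with riboflavin. Its direct difference between melinoe and riboflavin did not pass (log2 fold change 0.05, edgeR quasi-likelihood adjusted p = 0.293), but it passed with upper quartile scaling (0.10, adjusted p = 0.0265).

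In melinoe, 15 of 28 xyloglucan enzymes tested were lower and 10 higher. The lowest was XTH12, with 9.59, 9.48 and 10.2 CPM in the Col-0 libraries, 4.46, 3.45 and 4.87 CPM in melinoe and 5.60, 5.78 and 5.07 CPM with riboflavin (log2 fold change -1.20, standard error 0.114, edgeR quasi-likelihood adjusted p = 8.85e-10 in melinoe). XTH13, XTH14, XTH21 and XTH26, of which XTH14 and XTH26 are known from root hairs, had -1.02, -1.01, -0.93 and -0.85 in melinoe. With riboflavin XTH12, XTH13 and XTH26 were also lower (-0.83, -1.09 and -0.81), while XTH14 and XTH21 did not pass (-0.11 and 0.06), although XTH14 was called lower with upper quartile scaling (-0.17, edgeR quasi-likelihood adjusted p = 0.00395). XTH28 rose in melinoe, with 64.8, 63.2 and 64.3 CPM against 41.3, 38.8 and 37.8 CPM in Col-0 (log2 fold change 0.70), and did not pass with riboflavin (0.03).

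Fasciclin-like arabinogalactan proteins, cell surface proteins with adhesion-like domains, mostly fell with riboflavin and mostly did not pass in melinoe. With riboflavin 12 of 15 tested were lower, and 10 of these were at least halved, against 9.94% of all genes. The 3 that did not pass were FLA6, FLA11 and FLA12, the last pair known from secondary walls. FLA9, with 47.6% of the family's summed TPM in Col-0, measured 570, 562 and 570 CPM in the Col-0 libraries, 589, 565 and 597 CPM in melinoe and 224, 216 and 224 CPM with riboflavin. It fell 2.56-fold with riboflavin (log2 fold change -1.36, standard error 0.0347, edgeR quasi-likelihood adjusted p = 1.29e-22) and did not pass in melinoe (0.04, adjusted p = 0.370). FLA1 and FLA8 had the lowest log2 fold changes of the family, -2.78 and -1.95, and FLA1 went from 53.9, 55.6 and 55.9 CPM in Col-0 to 8.26, 7.88 and 7.94 CPM.

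In melinoe 5 of 15 fasciclin-like genes were lower, 1 higher and 9 did not pass. The share that passed, 40%, was below the 50.6% of all genes. FLA6, whose transcript is known from root, measured 6.93, 9.29 and 7.81 CPM in the Col-0 libraries, 3.65, 3.35 and 3.80 CPM in melinoe and 7.19, 7.26 and 8.23 CPM with riboflavin, so that melinoe alone stood apart (log2 fold change -1.15, standard error 0.126, edgeR quasi-likelihood adjusted p = 1.37e-08 in melinoe; -0.08 and adjusted p = 0.507 with riboflavin). FLA7 had -0.26. FLA13 was the member that rose, from 122, 120 and 130 CPM in Col-0 to 192, 179 and 170 CPM (log2 fold change 0.54), while it fell slightly with riboflavin (-0.17). Between melinoe and riboflavin, 12 of the 15 were higher in melinoe and 2 lower.

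The proline-rich proteins all fell with riboflavin and split in melinoe. PRP4, which held 75.6% of the family's summed TPM in Col-0, measured 462, 434 and 537 CPM in the Col-0 libraries, 393, 401 and 447 CPM in melinoe and 104, 108 and 105 CPM with riboflavin, a fall of 4.52-fold with riboflavin (log2 fold change -2.18, standard error 0.0538, edgeR quasi-likelihood adjusted p = 5.87e-23). In melinoe it had -0.21, a call lost with DESeq2 (adjusted p = 0.130) and reduced to -0.12 without Col-0 library C. PRP2 measured 39.3, 36.5 and 38.5 CPM in the Col-0 libraries, 61.9, 62.6 and 69.02 CPM in melinoe and 17.3, 15.6 and 16.2 CPM with riboflavin, higher in melinoe and lower with riboflavin than in every Col-0 library, with log2 fold changes of 0.76 and -1.21. PRP1 and PRP3, known from root hairs, were lower in melinoe by 2.15-fold and 1.93-fold. PRP3 measured 33.1, 36.6 and 41.5 CPM in the Col-0 libraries, 21.9, 15.2 and 20.6 CPM in melinoe and 27.7, 25.3 and 27.7 CPM with riboflavin. PRP1 measured 19.3, 18.6 and 20.7 CPM in the Col-0 libraries, 9.58, 7.68 and 10.03 CPM in melinoe and 10.7, 8.79 and 9.50 CPM with riboflavin. With riboflavin both were lower as well (-1.01 and -0.46), and between melinoe and riboflavin PRP3 was lower in melinoe (log2 fold change -0.50) while PRP1 did not pass (-0.10).

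Among extensins, which form crosslinked networks in the wall, 2 abundant genes rose in melinoe and 5 weakly expressed ones fell. EXT4 (AT1G76930; chromosome 1, 28895301 to 28897120) measured 357, 361 and 449 CPM in the Col-0 libraries, 1777, 1634 and 1815 CPM in melinoe and 519, 414 and 485 CPM with riboflavin. It was 4.47-fold higher in melinoe (log2 fold change 2.16, standard error 0.0593, edgeR quasi-likelihood adjusted p = 1.16e-21), the highest log2 fold change of any member there, and had 0.28 with riboflavin, a call lost with DESeq2 (adjusted p = 0.0732). EXT3, needed for the cell plate of the embryo, was the extensin with the most transcript in Col-0 (892 TPM by the authors' mean) and measured 941, 932 and 1229 CPM in the Col-0 libraries, 1680, 1555 and 1654 CPM in melinoe and 1186, 978 and 1120 CPM with riboflavin. It was called higher in melinoe (log2 fold change 0.65, standard error 0.0633, edgeR quasi-likelihood adjusted p = 1.27e-09). With riboflavin it did not pass (0.08, adjusted p = 0.276), except without Col-0 library C, where its log2 fold change was 0.22 (adjusted p = 0.0003629 in edgeR).

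The other 5 extensins, EXT6, EXT10, EXT11, EXT12 and EXT13, had log2 fold changes in melinoe from -0.90 to -0.62. EXT10 measured 15.2, 15.8 and 24.6 CPM in the Col-0 libraries, 10.9, 9.04 and 10.2 CPM in melinoe and 14.7, 10.6 and 13.98 CPM with riboflavin. EXT6 measured 17.9, 17.7 and 31.1 CPM in the Col-0 libraries, 14.04, 10.6 and 12.2 CPM in melinoe and 14.7, 13.5 and 14.9 CPM with riboflavin. In both genes all melinoe libraries lay below all Col-0 libraries. EXT11, annotated as a pseudogene on TAIR10.1, measured 11.5, 10.1 and 15.6 CPM in the Col-0 libraries, 7.55, 5.11 and 7.26 CPM in melinoe and 7.82, 5.54 and 8.91 CPM with riboflavin. Col-0 library C was the highest Col-0 library for all 7 extensins. Without it, EXT6 had -0.54 in place of -0.86 in melinoe, and with riboflavin -0.31 in place of -0.63, and EXT10 had -0.25 in place of -0.50, all still called. With riboflavin EXT6, EXT10, EXT11 and EXT13 were lower and EXT12 did not pass (0.03). The call of EXT10 there was lost with DESeq2 (adjusted p = 0.105). Extensin coding sequences are repetitive. Identical windows of 100 bases shared with the longest transcript of another gene were found in 2 of the 133 wall members, in 8.71% of windows of CSLB06 and 0.113% of EXT6. Near-identical and shorter repeats were not counted, so how reads were divided among the extensins was not tested.

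**Figure D4:**
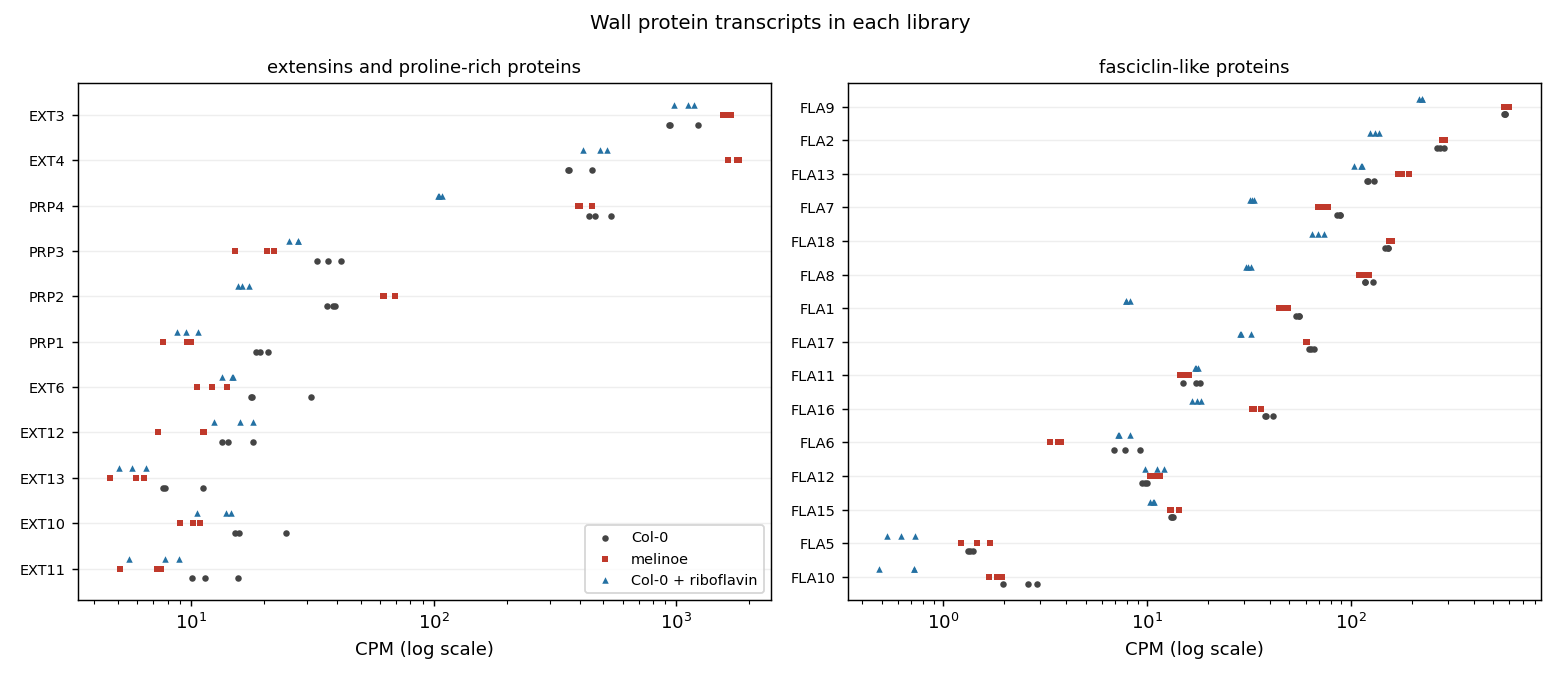
CPM on a log axis for extensins with proline-rich proteins (left) and fasciclin-like proteins (right), ordered by the authors' mean TPM in Col-0, with 3 libraries a group; CPM compares libraries within a gene. EXT4 and EXT3 lie right of Col-0 in melinoe, PRP4 and most fasciclin-like proteins lie left with riboflavin, and 1 Col-0 library lies right of the other Col-0 libraries for the extensins.

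Several of the members lower in melinoe are known from root hairs, so the root hair markers are given beside them. Of 11 root hair markers, 10 were tested in melinoe: 7 were lower, 1 was higher and 2 did not pass. Of all genes tested there, 25.2% were lower and 25.4% higher. Their summed level was 71.7 to 77.5 CPM in Col-0 libraries, 51.7 to 53.4 CPM in melinoe and 65.2 to 69.8 CPM with riboflavin. COBL9, a wall protein of root hairs, had a log2 fold change of -0.76, ADF8 -1.13 and the transcription factor RSL4 -0.70, while RSL2 was higher at 1.16. No marker was at 0 in all libraries. With riboflavin, 5 of 10 were lower and 1, RBOHC, was higher (log2 fold change 0.70). The share of markers that passed with riboflavin, 60%, was below the 74.2% of all genes. The part of root hair number in the levels of EXPA7, EXPA18, PRP1, PRP3, XTH14 and XTH26 was not tested.

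Among pectin methylesterases, 7 of 9 tested fell with riboflavin, 1 rose and 1 did not pass, while melinoe had 3 lower and 3 higher. In melinoe this was 33.3% each, against 25.2% of all genes lower and 25.4% higher. PME44 (AT4G33220; chromosome 4, 16022269 to 16026428) measured 105, 115 and 117 CPM in the Col-0 libraries, 140, 141 and 144 CPM in melinoe and 27.04, 28.2 and 29.4 CPM with riboflavin. It was higher than Col-0 in every melinoe library and lower in every riboflavin library, with log2 fold changes of 0.34 and -1.99 and a direct difference of 4.98-fold (log2 fold change 2.32, standard error 0.0447, edgeR quasi-likelihood adjusted p = 1.05e-27). PME3, a main pectin methylesterase of vegetative tissue that is known as a target of a nematode protein, fell from 277, 268 and 279 CPM in Col-0 to 91.9, 89.9 and 89.2 CPM with riboflavin (log2 fold change -1.60, standard error 0.0374, edgeR quasi-likelihood adjusted p = 1.58e-23) and did not pass in melinoe (0.04).

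PME5, known for softening the wall at the shoot apex, fell in both comparisons, with log2 fold changes of -2.10 with riboflavin and -0.40 in melinoe. PME2 measured 30.4, 29.3 and 29.7 CPM in the Col-0 libraries, 17.3, 15.1 and 15.98 CPM in melinoe and 15.6, 16.7 and 16.8 CPM with riboflavin, lower in both groups than in every Col-0 library, and its difference between melinoe and riboflavin did not pass (log2 fold change -0.04, edgeR quasi-likelihood adjusted p = 0.662). PME31 rose with riboflavin (0.42) and did not pass in melinoe (0.08). PMEPCRA, the member of the family with the most transcript in Col-0 at 237 TPM by the authors' mean, and PMEPCRF were higher in melinoe (0.14 and 0.31) and lower with riboflavin (-0.24 and -0.27). The pectin methylesterase inhibitors PMEI1 and PMEI5 had at most a few reads and were not tested.

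Cellulose synthases had log2 fold changes from -1.04 to 0.20 with riboflavin and from -0.48 to 0.05 in melinoe. With riboflavin, 5 of 6 tested were lower and CESA4 was higher. CESA1 and CESA6, catalytic subunits of the primary wall complex, measured 336, 354 and 344 CPM and 240, 240 and 244 CPM with riboflavin against 535, 540 and 526 CPM and 337, 328 and 331 CPM in Col-0. CESA1 had a log2 fold change of -0.63 (standard error 0.0345, edgeR quasi-likelihood adjusted p = 3.56e-15), CESA6 -0.46, and CESA2 and CESA5, which can stand in for CESA6, -0.71 and -0.54. CESA9, known from the seed coat, had -1.04 on 3.26, 2.30 and 1.59 CPM in Col-0. CESA4, a subunit of the secondary wall complex, went from 31.1, 28.3 and 28.7 CPM in Col-0 to 34.1, 32.2 and 34.7 CPM, a log2 fold change of 0.20.

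In melinoe CESA1 and CESA2 were lower, at 437, 443 and 470 CPM and 119, 113 and 122 CPM, with log2 fold changes of -0.25 and -0.48. The other 4 tested did not pass, CESA6 at -0.08 (edgeR quasi-likelihood adjusted p = 0.0690), CESA4 at -0.12, CESA5 at 0.02 and CESA9 at 0.05. CESA6 passed with upper quartile scaling and without melinoe library C. Between melinoe and riboflavin, 5 of 6 were higher in melinoe and CESA4 was lower. The remaining subunits carry other symbols and so fall outside the rule: CESA3 of the primary complex had -0.60 with riboflavin and -0.19 in melinoe, both called. CESA7 and CESA8 of the secondary complex had 0.05 and 0.34 with riboflavin, of which CESA8 passed, and neither passed in melinoe.

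Among cellulose synthase-like genes, all 4 CSLC genes and 4 of 6 CSLA genes fell with riboflavin, while CSLE1, CSLG2 and CSLG3 were among those that rose. In all, 11 of 21 tested were lower (52.4%, against 37.4% of all genes), 5 higher (23.8%, against 36.8%) and 5 did not pass. The share that passed, 76.2%, was near the 74.2% of all genes. In melinoe 9 of the 21 were lower (42.9%, against 25.2% of all genes), 4 higher (19.05%, against 25.4%) and 8 did not pass. The CSLC genes make the glucan backbone of xyloglucan, and 3 of the 4 were also lower in melinoe. CSLC04, the family member with the most transcript in Col-0 at 76.96 TPM by the authors' mean, measured 152, 150 and 153 CPM in the Col-0 libraries, 101, 100 and 95.7 CPM in melinoe and 59.5, 55.9 and 56.9 CPM with riboflavin, a descending order of Col-0, melinoe and riboflavin with no overlap. Its log2 fold change was -0.62 in melinoe and -1.40 with riboflavin (standard errors 0.0394 and 0.0406). CSLC12 had -0.69 and -0.99, and the direct difference of CSLC12 did not pass (0.28), except without melinoe library C (0.41, adjusted p = 0.0267 in edgeR).

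Of the 6 CSLA genes, which make mannan backbones, 4 were lower with riboflavin, with CSLA03 at -0.99 and CSLA07 at -0.86. CSLA02 (-0.07) and CSLA14 (-0.10) did not pass. CSLA10 had the lowest log2 fold change of the family in both comparisons, -1.48 in melinoe and -1.99 with riboflavin, but at 1.61, 1.59 and 1.64 CPM in Col-0. CSLD5, known from the forming cell plate of dividing cells, measured 28.8, 25.1 and 26.6 CPM in the Col-0 libraries, 25.7, 24.8 and 24.8 CPM in melinoe and 6.71, 6.88 and 7.01 CPM with riboflavin, a fall of 3.90-fold with riboflavin and no call in melinoe (-0.10). CSLD3, needed for root hair tip growth, was lower in both comparisons (-0.40 in melinoe and -0.49 with riboflavin), and CSLD2, its close relative, was higher with riboflavin (0.36).

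CSLE1, of unknown product, measured 103, 106 and 111 CPM in the Col-0 libraries, 128, 124 and 127 CPM in melinoe and 241, 252 and 244 CPM with riboflavin and rose 2.31-fold with riboflavin (log2 fold change 1.21, standard error 0.0387, edgeR quasi-likelihood adjusted p = 2.11e-20), while its log2 fold change in melinoe was 0.24. CSLG2 (AT4G24000; chromosome 4, 12461907 to 12465675) measured 1.24, 1.13 and 1.36 CPM in the Col-0 libraries, 0.558, 0.486 and 0.828 CPM in melinoe and 12.9, 12.2 and 11.5 CPM with riboflavin. It was lower in melinoe (log2 fold change -0.98) and 9.81-fold higher with riboflavin (log2 fold change 3.29, standard error 0.130, edgeR quasi-likelihood adjusted p = 2.06e-18). Its neighbour CSLG3 was higher in both, 1.24 in melinoe and 0.87 with riboflavin, on 0.872, 0.845 and 1.31 CPM in Col-0. CSLB03 was the gene of the family with at least 100 counts that rose most in melinoe, from 24.4, 21.2 and 22.9 CPM in Col-0 to 49.02, 51.2 and 51.6 CPM (log2 fold change 1.15), and it had 0.32 with riboflavin.

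**Figure D5:**
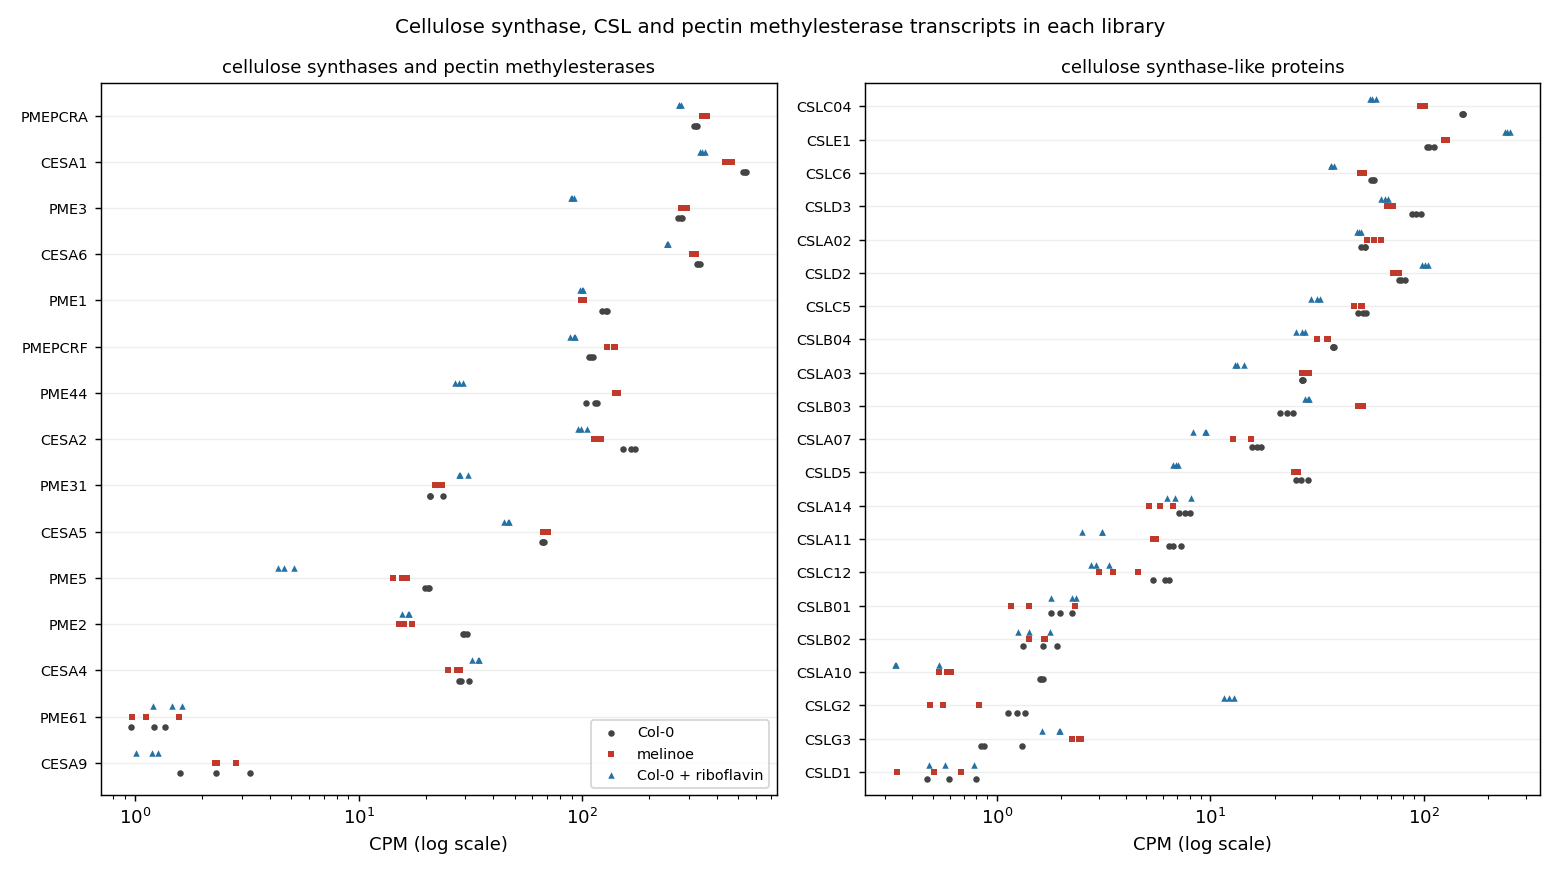
CPM on a log axis for cellulose synthases with pectin methylesterases (left) and cellulose synthase-like genes (right) tested in either comparison with Col-0, ordered by the authors' mean TPM in Col-0, with 3 libraries a group; CPM compares libraries within a gene. With riboflavin 5 of the 6 cellulose synthases lie left of Col-0 and CESA4 lies right, PME44, PME3 and PME5 also lie left, and CSLG2 lies left in melinoe and far right with riboflavin.

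Other wall genes, taken from lists by function, were counted in the same tests. The lists here and in the next paragraphs were chosen with earlier results of these data known, so their counts are descriptions. In these tests 36.8% of all genes were higher and 37.4% lower with riboflavin, and 25.4% higher and 25.2% lower in melinoe. Of 8 genes of xyloglucan synthesis and trimming, 7 were lower with riboflavin and 1 did not pass, at a median of -0.76 on the log2 scale, and 5 were lower in melinoe, with a median of -0.26. Their steepest falls with riboflavin were those of BGAL10 and XYL1, glycosidases that trim xyloglucan in the wall, at -1.70 and -1.62. All 12 pectin synthesis genes were lower with riboflavin, with a median of -0.62, and GALS1, a galactan synthase, had -1.66. In melinoe 9 of these 12 were lower and 1 higher.

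Of 7 partners of cellulose synthesis, 6 were lower with riboflavin and 1 higher, with a median of -0.51, whereas in melinoe 3 were higher and 1 lower. Of 11 genes of xylan and secondary wall synthesis, 6 were higher with riboflavin (54.5%, against 36.8% of all genes) and 1 was lower, and their median was 0.24. In either direction 63.6% of them passed, a smaller share than the 74.2% of all genes. FRA8, a glycosyltransferase of xylan synthesis, had 1.50 with riboflavin and 0.42 in melinoe, where 1 of 11 was higher and 1 lower. Of 4 secondary wall regulators tested, 0 passed in either comparison with edgeR or with DESeq2, and 0 had an unadjusted p under 0.05. The list names 7 loci, of which 2 had no deposited values and NST1 had too few reads to be tested. The xylem vessel markers XCP1 and XCP2 were higher in both, at 0.19 and 0.17 in melinoe and 0.26 and 0.34 with riboflavin. The other xylem vessel markers, VND6 and VND7, did not pass in either comparison and are also among the 4 secondary wall regulators. The summed level of the 4 xylem vessel markers was 131.1 to 135 CPM in Col-0, 149.9 to 152 CPM in melinoe and 159 to 169.6 CPM with riboflavin, and its part in the secondary wall counts was not tested. VND6 and VND7 add little to this sum, with Col-0 means of 1.18 and 1.06 CPM.

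Genes of acid growth, in which proton pumps acidify the wall and so activate expansins, were all lower with riboflavin, 10 of 10, with a median of -1.77. The 7 SAUR genes of the list, auxin-induced activators of these pumps, had Col-0 means from 1.05 ± 0.259 CPM to 2.999 ± 0.700 CPM (SD, n = 3). SAUR19 to SAUR24 are close copies in 1 cluster, so how reads were divided among them is uncertain. The list also holds PP2C-D1, a phosphatase that restrains the pumps, at -1.44 with riboflavin and -0.44 in melinoe. The plasma membrane proton pump AHA2 measured 953, 937 and 911 CPM in the Col-0 libraries, 1519, 1544 and 1556 CPM in melinoe and 773, 759 and 769 CPM with riboflavin, a log2 fold change of 0.72 in melinoe and -0.28 with riboflavin, and AHA1 had 0.25 and -0.09. In melinoe 2 of the 10 were higher, these pumps, and 5 lower.

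Of 13 genes of wall sensing, 9 were lower and 1 higher with riboflavin, and 8 were lower and 4 higher in melinoe. MIK2, a receptor kinase of wall damage and immune signalling, was the gene that rose in both, from 142, 132 and 147 CPM in Col-0 to 441, 396 and 421 CPM in melinoe and 208, 222 and 228 CPM with riboflavin. THE1, a receptor kinase that senses wall integrity, was lower in both (-0.32 in melinoe and -1.08 with riboflavin), and LRX5, a leucine-rich repeat extensin, had -2.25 with riboflavin. Of 5 pectin breakdown genes tested, 2 were higher and 2 lower with riboflavin (40.0% each, near the 36.8% and 37.4% of all genes), and 3 were higher and 1 lower in melinoe.

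The pollen markers, which whole seedlings should lack, summed to 0.811 to 1.53 CPM over all libraries. This sum covers 5 of the 7 loci listed, as 2 had no deposited values. BUPS1 made up most of it, at 0.536 to 1.15 CPM. The 6 members that are not wall genes are given for completeness. With riboflavin PMEAMT (0.43), PRP39, PRP40A, PRP40B and PRP40C were higher and PRP39-2 lower, and in melinoe all but PRP39-2 were lower, PMEAMT at -0.42. Without them, 79 wall genes of 115 tested were lower and 21 higher with riboflavin, and 56 of 114 were lower and 26 higher in melinoe.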

How the data were processed

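Members and gene lists were chosen with earlier results of these data known. Per the labels, poly(A) libraries were made with a strand-specific kit and sequenced on a DNBSEQ instrument. The submitters' processing notes list TAIR10, RSEM, Bowtie2 and DESeq2, whereas the series' design text names SOAPnuke 1.5.2 and HISAT2 2.0.4, so the aligner behind the values is not settled. The deposited expected counts are not normalized, per the file headers; 1.90% were not whole and all were rounded. The deposited TPM values, scaled by the authors for length and depth, served to compare levels between genes, as the authors' mean per group. TPM columns of single libraries (12) were not used, in place of the planned mean and SD, because a letter cannot be matched to 1 labelled sample. The authors' deposited log2 fold changes and p-values or q-values were not used.

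The tables were joined by gene identifier. Genes found in 1 table only (386 in the mutant table, 393 in the riboflavin table) had 0 counts in Col-0 and were set to 0 in the group lacking them. All 24635 identifiers matched RefSeq's TAIR10.1 annotation, whose nuclear chromosomes are those of TAIR10. Each comparison used its 6 libraries in edgeR 4.0.16 (R 4.3.3): filterByExpr (minimum count 10, minimum total 15), TMM, and the quasi-likelihood F test with no covariate, with Benjamini-Hochberg adjustment over all genes tested. Fold changes use a prior count of 0.125, and standard errors are the fold change divided by the square root of F. The test was run on simulated data in which a far smaller share of genes was changed than was called here. That check therefore does not cover the setting of these comparisons. Libraries of a group differed by more than sampling noise, with a chi-square per gene of 1.81 to 2.61, and each was counted as a replicate. Which letter is which labelled replicate is not known.

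Genes named were, in each family and comparison with Col-0, the 2 highest and 2 lowest log2 fold changes among called genes with no overlap between groups whose higher group averaged 100 counts or more, plus TCH4, all CESA genes and the member with the highest TPM in Col-0; further members are named for a known role, for completeness or after their values were seen. Alternatives were DESeq2 1.42.0, other scalings, other filters on low counts, all 9 libraries in 1 fit, the column letters as a block, each library left out in turn, and calls limited to a doubling or halving.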

Additional observations from a re-analysis of the deposited data

How the results depend on the processing

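Counts of members kept within 1.5 times of those reported under DESeq2, other scalings, other filters on low counts, all 9 libraries in 1 fit, and leaving out each library. A required log2 fold change of at least 1 moved them, to 4 higher and 9 lower in melinoe, 7 higher and 44 lower with riboflavin, and 38 higher and 11 lower between melinoe and riboflavin. Leaving out each library in turn gave 25 to 26 higher and 55 to 62 lower in melinoe, 23 to 26 and 80 to 81 with riboflavin, and 63 to 65 and 31 to 35 between melinoe and riboflavin. The column letters are not known to pair libraries, since the deviations of same-letter libraries correlated at -0.03 to 0.02. With the letter as a replicate block the counts were 26 higher and 62 lower, 26 and 80, and 64 and 35. DESeq2 gave 27 and 55, 21 and 79, and 64 and 30, and upper quartile scaling 26 and 63, 22 and 82, and 68 and 34. Among family counts, expansins higher with riboflavin were 5, or 3 with DESeq2 or upper quartile scaling. Extensins higher with riboflavin were 1, or 0 with DESeq2 and 2 without Col-0 library C. Fasciclin-like proteins higher with riboflavin were 0, or 1 without riboflavin library C, and those lower in melinoe than with riboflavin were 2, or 1 with DESeq2 or without melinoe library A. Signs that turned were all of uncalled log2 fold changes, over ranges of -0.0001097 to 0.036 for CESA5 and -0.168 to 0.349 for CESA9 in melinoe, -0.002977 to 0.064 for XTH28 and -0.177 to 0.0367 for FLA6 with riboflavin, and -0.0836 to 0.0116 for PME2 and -0.179 to 0.00989 for PRP1 between melinoe and riboflavin, all from leaving out 1 library. For CESA9 in melinoe it was also -0.048 without melinoe library A. Upper quartile scaling turned XTH28 with riboflavin (-0.035) and PME2 between melinoe and riboflavin (0.019). Between melinoe and riboflavin, the calls of XTH12 (-0.38) and EXT6 (-0.24) were lost without melinoe library B, at -0.24 (edgeR adjusted p = 0.1004) and -0.14 (edgeR adjusted p = 0.139), and with DESeq2 (adjusted p = 0.0583 for both), and that of EXT6 also with all 9 libraries (edgeR adjusted p = 0.166). EXT11 gained a call there without riboflavin library B (-0.35, edgeR adjusted p = 0.0147). The causes were not tested. The 18 members with at most 14 counts in a library were not tested, so no difference could be called for them at this depth.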
